A study of Mus musculus with 20 samples.

Results

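Autophagy, the delivery of cytoplasm to the lysosome in double-membraned vesicles, was followed through the transcripts of 40 listed genes in mouse livers taken in the fasted or the refed state. The genes were chosen by symbol, from the kinases that start autophagosome formation to the receptors that load its cargo. Earlier results of these data were known when the list was made. Of the 40 symbols, 37 have a row in a table of read counts for 29915 genes. Atg101, Vmp1 and Tfeb have none under these names, and Tfe3 is listed at 0 counts in all 20 libraries. The remaining 36 were among the 13894 genes that passed the filter on low counts, and results below are for these 36.

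The livers came from male mice on chow under a light cycle of 12 h light and 12 h dark. They fall into 4 groups of 5 libraries: Prox1 K556R refed, Prox1 K556R fasted, wild type refed and wild type fasted. K556R is a form of the transcription factor Prox1 that lacks a lysine to which SUMO, a small protein modifier, is attached. Cre recombination switched on its expression in hepatocytes when the mice were 8 weeks old, and the tissue was taken after a further 11 weeks, between Zeitgeber times 15 and 17. The sample titles call the genotypes Cre and Ctrl, so an effect of Cre and one of K556R cannot be told apart. The promoter that drove Cre, the mouse strain and the lengths of fasting and refeeding are not stated in the labels. Batch 1 holds 14 libraries and batch 2 holds 6, of which 3 are K556R refed and 1 belongs to each other group. A library such as 1_b1 is replicate 1 of batch 1 within its group. The labels do not say how the repeats relate to animals, so p-values measure the spread between these libraries.

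Autophagy supplies amino acids, lipids and sugars from the cell's own contents when food is withheld, and the liver is a tissue in which fasting is known to raise it. The ULK kinase complex starts the process, a lipid kinase complex around Pik3c3 marks the membrane, and Atg9a, the Atg2 proteins and the Wipi proteins extend it. A ubiquitin-like conjugation system then attaches the ATG8 proteins (the LC3 and GABARAP proteins) to the membrane, where receptors bind them with their cargo. Much of the fast control is by phosphorylation through the kinases mTORC1 and AMPK, which transcript counts do not measure. Transcription factors of the FOXO and MiT/TFE families and PPARα are known to act on autophagy genes on a slower time scale.

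The start regions of 5 members are printed to show what lies before genes that moved with feeding. They are 300 bases each, from 250 before to 50 after the RefSeq start site on GRCm38.p6, read 5′ to 3′ along the gene's strand. Gabarapl1 (chr6:129532942-129533241, plus strand) and Ulk1 (chr5:110810032-110810331, minus strand) were among the members with the largest changes, Bnip3 (chr7:138909457-138909756, minus strand) and Atg14 (chr14:47568385-47568684, minus strand) were lower in refed livers of both genotypes and carry a searched motif, and Atg3 (chr16:45158579-45158878, plus strand) was higher in refed wild-type livers. Capitals mark matches to the E-box CACGTG, to TCACGTG, which contains it and resembles the site bound by MiT/TFE factors, or to the FOXO-type motif GTAAACA, each searched on both strands.
Gabarapl1: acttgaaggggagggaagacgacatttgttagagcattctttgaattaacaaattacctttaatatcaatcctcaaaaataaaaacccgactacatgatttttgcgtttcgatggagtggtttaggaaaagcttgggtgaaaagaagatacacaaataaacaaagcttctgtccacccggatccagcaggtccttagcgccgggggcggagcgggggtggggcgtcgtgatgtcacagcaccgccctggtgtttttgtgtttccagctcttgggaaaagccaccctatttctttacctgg
Ulk1: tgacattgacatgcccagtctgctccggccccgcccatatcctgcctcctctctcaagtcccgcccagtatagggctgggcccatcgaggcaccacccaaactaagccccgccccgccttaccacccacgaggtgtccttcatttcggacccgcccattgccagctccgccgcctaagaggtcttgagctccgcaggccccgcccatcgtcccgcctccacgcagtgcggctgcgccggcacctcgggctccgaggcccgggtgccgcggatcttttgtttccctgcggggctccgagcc
Bnip3: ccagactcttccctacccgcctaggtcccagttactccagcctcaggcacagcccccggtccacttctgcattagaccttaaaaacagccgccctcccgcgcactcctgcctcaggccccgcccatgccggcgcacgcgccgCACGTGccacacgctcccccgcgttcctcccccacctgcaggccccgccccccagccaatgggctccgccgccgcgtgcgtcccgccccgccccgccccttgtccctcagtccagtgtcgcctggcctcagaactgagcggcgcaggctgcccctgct
Atg14: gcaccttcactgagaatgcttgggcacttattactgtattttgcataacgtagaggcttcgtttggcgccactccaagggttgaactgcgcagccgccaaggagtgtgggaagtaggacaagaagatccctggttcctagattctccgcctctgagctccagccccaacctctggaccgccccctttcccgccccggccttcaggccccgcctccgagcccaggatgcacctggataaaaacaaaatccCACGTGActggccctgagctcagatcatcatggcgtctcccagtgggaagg
Atg3: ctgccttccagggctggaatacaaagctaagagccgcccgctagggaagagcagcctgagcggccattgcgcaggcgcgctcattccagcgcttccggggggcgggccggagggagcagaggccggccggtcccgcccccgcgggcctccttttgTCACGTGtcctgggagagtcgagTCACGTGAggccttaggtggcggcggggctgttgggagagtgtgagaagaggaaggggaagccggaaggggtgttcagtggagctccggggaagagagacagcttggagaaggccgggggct

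RefSeq start regions were at hand for 29 of the 36 tested members, in 32 windows of the same length. CACGTG occurred in the windows of 5 of the 29 genes (17.2%), namely Atg3, Atg5, Atg7, Atg14 and Bnip3, against 8.09% of all 27025 genes with a window. TCACGTG occurred in 3 of the 29 (10.3%), namely Atg3, Atg7 and Atg14, against 4.29% of all genes, and every such match overlaps an E-box match. The windows of Atg7 (chr6:114670846-114671145) and Atg14 (chr14:47568385-47568684) lie wholly inside the annotated genes (chr6:114643097-114860614 and chr14:47540893-47570649). Their RefSeq start sites are thus downstream of the first annotated base. GTAAACA occurred in 0 of the 29 genes, against 4.05% of all genes. The 29 members all passed the filter on low counts, while the 27025 genes were not limited to those tested. These shares thus compare unlike sets. Only these exact letters were searched on either strand, so variants of the FOXO-type motif were not counted. Of the 16 genes with a window that were lower in refed wild-type livers, 2 held CACGTG (12.5%). Of the 11 not called there, 2 held it (18.2%), and of the 2 that were higher, 1 did. Of the CACGTG matches printed, the one in Bnip3 begins 108 bases before the start site and the one in Atg14 begins 1 base before it. Those in Atg3 begin 94 and 71 bases before the start site. These matches describe the printed letters and are not binding sites by themselves.

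Read totals were 33746054 to 50647297 per library. Levels are given as CPM, counts scaled to a common library total adjusted by TMM. Feeding-regulated control genes moved in every comparison: Pck1, a gluconeogenic enzyme, measured 597 to 2393 CPM in K556R refed livers against 4871 to 7276 in K556R fasted livers, and 686 to 1427 in wild-type refed livers against 5080 to 8016 in wild-type fasted livers. Srebf1, the lipogenic transcription factor induced by insulin, was higher on refeeding by a log2 change of 2.48 in K556R and 2.44 in wild-type livers (adjusted p = 6.16e-08 and 2.19e-08, edgeR). Prox1 itself was lower in K556R than in wild-type livers, with a log2 change of −0.72 (SE 0.10, adjusted p = 0.00564) averaged over feeding states. That call was lost in batch 1 alone (adjusted p = 0.326) and with a replicate block (adjusted p = 0.177), where the log2 changes were −0.71 and −0.70. Within a feeding state Prox1 did not pass in edgeR, with −0.61 (SE 0.15, adjusted p = 0.559) in refed and −0.82 (SE 0.14, adjusted p = 0.0666) in fasted livers. DESeq2 called it in fasted livers (adjusted p = 0.000157) and not in refed livers (adjusted p = 0.0901). The counts do not show which Prox1 allele was read. Summed markers of hepatocytes were 94900 to 107000 CPM in K556R refed, 119000 to 128000 in K556R fasted, with 98900 to 106000 in refed and 94400 to 133000 in fasted livers of the wild type. Of the 5 hepatocyte markers, 3 were lower and 0 higher on refeeding in K556R (median log2 change −0.30) and 3 lower and 1 higher in wild-type livers (median −0.25), and their part in the results was not tested. Summed markers of Kupffer cells were 67.6 to 139 CPM in K556R refed, 68.1 to 91.8 in K556R fasted, with 56.9 to 92.8 in refed and 38.2 to 219 in fasted livers of the wild type, and 0 of the 5 counted passed the test for refeeding in either genotype. Endothelial markers summed to 67.1 to 94.2 CPM in K556R refed, 82.5 to 93.8 in K556R fasted, with 69.8 to 79.4 in refed and 60.1 to 99.6 in fasted livers of the wild type, and 1 of 5 genes was lower on refeeding in K556R and 2 of 5 in wild-type livers. Their part in the results was not tested. Libraries 1_b1 of K556R refed and 1_b1 of K556R fasted stood apart from the rest on the second principal component (12.1% of variance). Their summed proliferation markers were 20.1 and 12.0 CPM, against at most 4.76 and 6.81 CPM in the other libraries of the same groups, and their lymphocyte markers were 5.05 and 5.20 CPM against at most 2.18 and 1.68. Results are therefore given with and without these 2 libraries where they differ.

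Most of the autophagy genes tested had fewer transcripts in refed than in fasted livers. In K556R livers 22 of 36 (61.1%) were lower on refeeding and 0 were higher at an adjusted p under 0.05 (edgeR quasi-likelihood F test, Benjamini-Hochberg over all 13894 genes). Over all genes tested, 20.3% were lower and 19.6% higher in the same comparison. In wild-type livers 23 of 36 (63.9%) were lower and 2, Atg4a and Atg3, were higher, against 24.2% lower and 20.9% higher over all genes. At an unadjusted p under 0.05, 2 members were higher in refed K556R livers, and DESeq2 called 1. The median log2 change of the 36 was −0.28 in K556R and −0.30 in wild-type livers, beside 0.01 in K556R and −0.01 in wild-type livers over all genes. In K556R livers 10 of 36 (27.8%) fell by 0.5 or more on the log2 scale, against 11.7% of all genes, and in wild-type livers also 10 (27.8%), against 14.1%. Whether lower counts reflect less RNA per cell or fewer cells of a type cannot be told apart in whole liver.

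In all, 20 members were lower in both genotypes, which is 90.9% of those lower in K556R and 87.0% of those lower in wild-type livers. Atg13 and Sqstm1 passed the test in K556R livers alone, and Ulk2, Pik3r4 and Atg4c in wild-type livers alone. No difference between the genotypes' refeeding responses passed its own test, given further down. The sign of the change was the same in both genotypes for 35 of 36. Every refed library lay below every fasted library for 16 members in K556R livers (44.4%, against 14.1% of all genes) and for 19 in wild-type livers (52.8%, against 18.7%). The members called in neither genotype were Atg4b, Atg4d, Atg5, Atg7, Atg9a, Atg10, Atg16l2, Ambra1 and Gabarap.

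**Figure D1:**
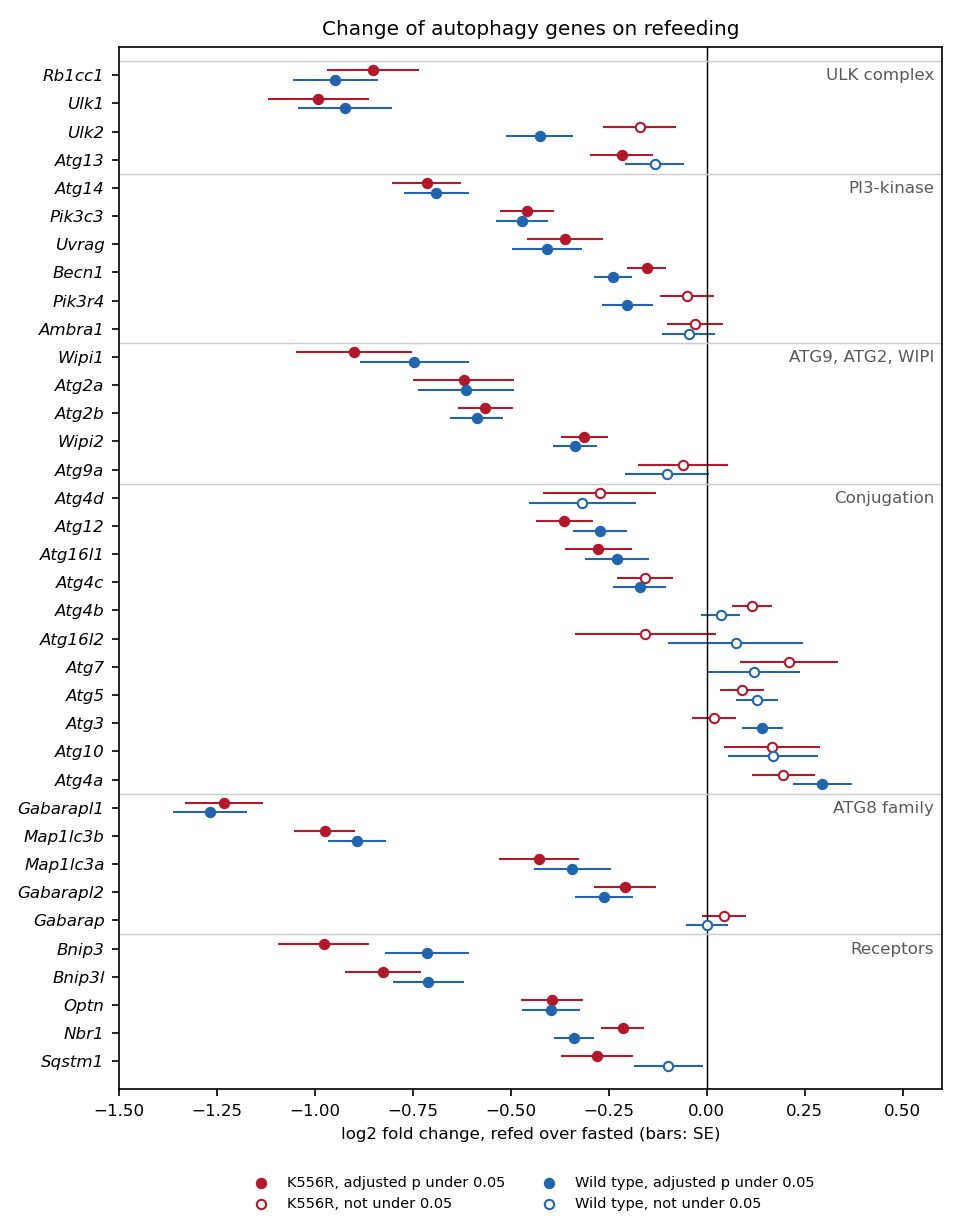
Log2 fold change of refed over fasted livers (x axis, bars are standard errors) for the 36 tested members, ordered by role and by change in wild-type livers, with K556R drawn above wild type for each gene. Filled points have an adjusted p under 0.05, and the points of the conjugation system gather around 0 while Gabarapl1, Ulk1, Rb1cc1 and Map1lc3b lie farthest to the left in wild-type livers.

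The ULK complex was represented by 4 tested genes, of which 3 fell in each genotype. Ulk1 (chr5:110784488-110810097 on GRCm38), the kinase that receives signals from mTORC1 and AMPK, measured 37.9, 51.3, 48.3, 50.8 and 69.6 CPM in K556R refed livers, against 88.5, 91.1, 117, 112 and 97.9 CPM in K556R fasted livers. In wild-type livers it measured 49.7, 55.9, 48.6, 61.0 and 50.8 CPM refed and 98.7, 109, 101, 105 and 91.1 CPM fasted. All refed libraries lay below all fasted ones in both genotypes, although library 3_b2 of K556R refed was higher than the other refed libraries. The log2 changes were −0.99 (SE 0.13, adjusted p = 5.66e-06) in K556R and −0.92 (SE 0.12, adjusted p = 3.71e-06) in wild-type livers by edgeR.

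Rb1cc1 (chr1:6206197-6276648) encodes FIP200, the scaffold of the complex. Its levels were 26.0, 18.8, 24.6, 25.4 and 24.9 CPM in K556R refed livers, against 43.3, 46.5, 49.4, 40.3 and 33.9 CPM in K556R fasted livers. Wild-type refed livers had 27.7, 24.8, 21.6, 21.0 and 29.9 CPM, against 46.0, 47.2, 51.6, 48.8 and 47.3 CPM in wild-type fasted livers. Refed and fasted libraries did not overlap in either genotype, and library 1_b2 was the lowest of the K556R fasted ones. Its log2 change was −0.85 (SE 0.12, adjusted p = 9.93e-06) in K556R and −0.95 (SE 0.11, adjusted p = 9.21e-07) in wild-type livers.

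Ulk2, a kinase related to Ulk1, had smaller log2 changes. It measured 72.9, 77.6, 93.4, 81.7 and 86.7 CPM in K556R refed livers against 80.7, 110.2, 96.6, 83.4 and 84.8 CPM in K556R fasted livers, and 89.0, 82.2, 79.1, 81.5 and 80.3 CPM in wild-type refed livers against 104, 101, 126, 104 and 119 CPM in wild-type fasted livers. The wild-type groups were separate and the K556R groups overlapped. Its log2 change was −0.17 (SE 0.092, adjusted p = 0.15) in K556R and −0.43 (SE 0.087, adjusted p = 0.000425) in wild-type livers. Atg13, the subunit that links Ulk1 to the scaffold, had changes of −0.22 (SE 0.080, adjusted p = 0.0362) in K556R and −0.13 (SE 0.076, adjusted p = 0.165) in wild-type livers. The K556R call of Atg13 was lost in 6 of the 20 fits that left out 1 library (without K556R fasted 3_b1, 4_b1 or 1_b2 or K556R refed 1_b1, 2_b1 or 1_b2, adjusted p up to 0.156).

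The lipid kinase complex and its partners came to 6 genes, of which 4 fell in refed K556R livers and 5 in refed wild-type livers. Atg14 (chr14:47540893-47570649), the subunit that directs the kinase to autophagosome formation, measured 12.3, 13.0, 13.6, 14.2 and 14.0 CPM in K556R refed livers, against 21.8, 22.7, 22.0, 23.2 and 20.3 CPM in K556R fasted livers. Its wild-type levels were 17.3, 13.5, 15.8, 11.9 and 15.2 CPM refed and 26.4, 22.6, 23.5, 23.8 and 22.5 CPM fasted. The lowest fasted library was above the highest refed library in both genotypes. Log2 changes were −0.72 (SE 0.088, adjusted p = 2.76e-06) in K556R and −0.69 (SE 0.083, adjusted p = 1.32e-06) in wild-type livers.

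Pik3c3 (chr18:30272747-30348126), the catalytic kinase VPS34, had levels of 19.5, 15.2, 16.6, 16.2 and 17.7 CPM in K556R refed livers and 24.8, 23.3, 25.3, 21.8 and 22.8 CPM in K556R fasted livers. Levels in wild-type livers were 16.6, 18.5, 15.8, 17.1 and 16.7 CPM refed and 22.2, 23.6, 23.7, 23.9 and 24.1 CPM fasted. Each refed group was below its fasted group without overlap, and the wild-type fasted libraries other than 1_b1 lay close together. The change was −0.46 (SE 0.070, adjusted p = 2.88e-05) in K556R and −0.47 (SE 0.066, adjusted p = 8.56e-06) in wild-type livers, on the log2 scale.

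Uvrag, which joins the same kinase in a complex with roles in endosomes and late autophagosomes, measured 29.0, 27.7, 29.7, 30.2 and 32.4 CPM in K556R refed livers and 40.1, 44.5, 39.6, 36.1 and 33.1 CPM in K556R fasted livers. In wild-type livers the values were 36.2, 30.8, 32.6, 32.1 and 36.9 CPM refed and 40.2, 42.2, 54.0, 48.2 and 39.4 CPM fasted. It was lower in all refed than in all fasted libraries of each genotype, with log2 changes of −0.36 (SE 0.096, adjusted p = 0.00501) in K556R and −0.41 (SE 0.090, adjusted p = 0.000911) in wild-type livers. Becn1, the Beclin 1 subunit, changed by −0.15 (SE 0.051, adjusted p = 0.0201) in K556R and −0.24 (SE 0.048, adjusted p = 0.000388) in wild-type livers. Without library 2_b1 of K556R refed its K556R call was lost (adjusted p = 0.122). The same call was lost with upper-quartile scaling, no filter or a replicate block, and without both K556R libraries that stood apart. Pik3r4, the regulatory kinase VPS15, had log2 changes of −0.05 (SE 0.069, adjusted p = 0.6) in K556R and −0.20 (SE 0.066, adjusted p = 0.0165) in wild-type livers. Its wild-type call was lost without wild-type fasted 1_b1 (adjusted p = 0.0568), with upper-quartile scaling, with no filter and in batch 1 alone. Ambra1, a partner of Beclin 1, had a log2 change of −0.03 (SE 0.071) in K556R and −0.05 (SE 0.067) in wild-type livers, within the spread.

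Among the genes that enlarge the membrane, 4 of 5 fell in each genotype. Atg2b (chr12:105616136-105685211), one of a pair of proteins that carry lipid into the growing membrane, measured 44.5, 47.6, 48.5, 44.1 and 48.4 CPM in K556R refed livers, against 67.9, 77.5, 75.2, 71.4 and 63.7 CPM in K556R fasted livers. In wild-type livers it stood at 48.4, 48.3, 47.6, 49.0 and 49.8 CPM refed and 74.8, 74.5, 76.7, 81.5 and 59.0 CPM fasted. The groups did not overlap. The log2 change was −0.57 (SE 0.071, adjusted p = 3.58e-06) in K556R and −0.59 (SE 0.067, adjusted p = 7.31e-07) in wild-type livers, and in batch 2 alone the wild-type difference, of 1 library against 1, was −0.25. Its relative Atg2a changed by −0.62 (SE 0.13, adjusted p = 0.000675) in K556R and −0.61 (SE 0.12, adjusted p = 0.000374) in wild-type livers.

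Wipi1, which binds the lipid that the kinase makes, measured 6.81, 9.31, 11.9, 9.64 and 13.1 CPM in K556R refed livers and 12.3, 18.6, 20.2, 19.96 and 18.7 CPM in K556R fasted livers. Wild-type levels were 13.8, 12.4, 11.4, 10.8 and 11.2 CPM refed and 18.8, 19.7, 22.1, 19.1 and 20.3 CPM fasted. The wild-type groups were separate, and the K556R groups overlapped because fasted library 1_b1, one of the 2 that stood apart, was the lowest of its group. The log2 change was −0.90 (SE 0.15, adjusted p = 7.57e-05) in K556R and −0.75 (SE 0.14, adjusted p = 0.000188) in wild-type livers. Wipi2, which recruits the conjugation machinery, changed by −0.31 (SE 0.059, adjusted p = 0.000275) in K556R and −0.34 (SE 0.056, adjusted p = 5.94e-05) in wild-type livers. Atg9a, the transmembrane lipid scramblase carried by seed vesicles, had values of −0.06 (SE 0.11) in K556R and −0.10 (SE 0.11) in wild-type livers and did not pass.

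The conjugation system, which prepares and attaches the ATG8 proteins, had the lowest share of lower calls among the roles. Of its 11 genes, 2 fell and 0 rose in refed K556R livers, and 3 fell and 2 rose in refed wild-type livers. Over all genes, 20.3% were lower and 19.6% higher in K556R, and 24.2% lower and 20.9% higher in wild-type livers. The wild-type counts were thus near the shares of all genes. Median log2 changes were 0.02 in K556R and 0.07 in wild-type livers. Of the 25 tested members of the other roles, 20 fell in each genotype. The genes that fell were Atg12, the ubiquitin-like modifier, with log2 changes of −0.36 (SE 0.073, adjusted p = 0.000476) in K556R and −0.27 (SE 0.069, adjusted p = 0.00278) in wild-type livers, and Atg16l1, which positions the conjugating complex on the membrane, with −0.28 (SE 0.086, adjusted p = 0.0135) in K556R and −0.23 (SE 0.082, adjusted p = 0.0279) in wild-type livers. Atg4c, a protease that processes ATG8 proteins, had a log2 change of −0.16 (SE 0.072) in K556R livers and fell in wild-type livers, with −0.17 (SE 0.068, adjusted p = 0.0457). Its wild-type call was lost in 10 of 20 fits without 1 library, those without wild-type refed 1_b1, 3_b1 or 4_b1, wild-type fasted 1_b1, 2_b1, 3_b1 or 4_b1, K556R refed 2_b1 or 2_b2 or K556R fasted 2_b1 (adjusted p up to 0.142). The wild-type call of Atg16l1 was lost in 6 of 20, without wild-type refed 2_b1, 4_b1 or 1_b2 or wild-type fasted 2_b1, 3_b1 or 4_b1 (adjusted p up to 0.103). The K556R call of Atg16l1 was lost without K556R refed 1_b1 or K556R fasted 1_b2 (adjusted p up to 0.124).

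Atg4a and Atg3 were the members that rose in refed wild-type livers. Atg4a, another of the proteases, had log2 changes of 0.20 (SE 0.080, adjusted p = 0.0576) in K556R and 0.29 (SE 0.076, adjusted p = 0.00328) in wild-type livers, and its wild-type refed libraries (12.9 to 15.2 CPM) lay above all fasted ones (10.5 to 12.7 CPM). Atg3, the E2-like enzyme that hands ATG8 proteins to the lipid, measured 77.9, 90.1, 92.4, 87.7 and 85.6 CPM in K556R refed livers and 80.2, 89.1, 85.8, 80.0 and 88.4 CPM in K556R fasted livers. In wild-type livers it measured 91.0, 90.5, 90.8, 92.8 and 95.2 CPM refed and 84.8, 83.5, 80.3, 88.6 and 79.9 CPM fasted, so the wild-type groups were separate and the K556R groups were not. The log2 change of Atg3 was 0.02 (SE 0.056) in K556R and 0.14 (SE 0.053, adjusted p = 0.0342) in wild-type livers, and its wild-type call was lost in 8 of 20 fits, those without any 1 of the wild-type refed libraries or without wild-type fasted 2_b1, 3_b1 or 1_b2 (adjusted p up to 0.112).

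The other conjugation genes did not pass in either genotype. Atg7, the E1-like enzyme on which both conjugation branches depend, had log2 values of 0.21 (SE 0.12, adjusted p = 0.195) in K556R and 0.12 (SE 0.12, adjusted p = 0.44) in wild-type livers. Atg5, the partner of Atg12, had 0.09 (SE 0.055, adjusted p = 0.212) in K556R and 0.13 (SE 0.052, adjusted p = 0.0534) in wild-type livers. Atg10, the E2-like enzyme of the Atg12 branch, was the least abundant conjugation gene by CPM (2.77 to 3.78 in K556R refed, 2.40 to 3.25 in K556R fasted livers, with 3.36 to 4.51 refed and 2.88 to 3.59 fasted in the wild type). Atg4b, Atg4d and Atg16l2 had 0.12, −0.27 and −0.16 in K556R livers and 0.04, −0.32 and 0.07 in wild-type livers. Without the 2 K556R libraries that stood apart, Atg7 passed as higher in refed K556R livers and Atg5 as higher and Atg4d as lower in refed wild-type livers.

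The ATG8 family held the member with the largest change, Gabarapl1, and 4 of its 5 genes fell in each genotype. Gabarapl1 (chr6:129533160-129542346) measured 130.5, 126, 136, 127 and 132 CPM in K556R refed livers, against 284, 345, 316, 322 and 304 CPM in K556R fasted livers. Its wild-type levels were 171, 148, 129, 118 and 131 CPM refed and 332, 313, 402, 354 and 279.8 CPM fasted. Every fasted library was well above every refed one, and the K556R refed libraries lay within a narrow range. With log2 changes of −1.23 (SE 0.10, adjusted p = 3.19e-08) in K556R and −1.27 (SE 0.094, adjusted p = 6.41e-09) in wild-type livers, it had the largest change of the 36 members in each genotype.

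Map1lc3b (chr8:121590361-121598760) encodes LC3B, the protein whose lipid-bound form is the usual marker of autophagosomes. It measured 74.6, 80.1, 81.6, 76.2 and 84.3 CPM in K556R refed livers, against 151, 148, 179, 171 and 148 CPM in K556R fasted livers. Wild-type livers had 96.4, 88.0, 82.8, 73.7 and 82.2 CPM refed and 161, 156, 164, 167 and 139 CPM fasted. No refed library reached the lowest fasted one, and the log2 changes were −0.98 (SE 0.078, adjusted p = 3.16e-08) in K556R and −0.89 (SE 0.074, adjusted p = 1.94e-08) in wild-type livers.

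Map1lc3a, which encodes LC3A, fell by smaller amounts, with log2 changes of −0.43 (SE 0.10, adjusted p = 0.00221) in K556R and −0.34 (SE 0.097, adjusted p = 0.00671) in wild-type livers. Gabarapl2 changed by −0.21 (SE 0.078, adjusted p = 0.039) in K556R and −0.26 (SE 0.074, adjusted p = 0.00649) in wild-type livers, with overlapping groups in both, and its difference in batch 2 alone (1 library against 1) was 0.03 in wild-type livers. Its K556R call was lost in 7 of 20 fits without 1 library, those without K556R refed 1_b1, 2_b1 or 2_b2, K556R fasted 3_b1, 4_b1 or 1_b2 or wild-type refed 1_b2 (adjusted p up to 0.194). Gabarap did not pass in either genotype, at 188 ± 8.75 CPM in K556R refed, 185 ± 8.11 in K556R fasted, 190.0 ± 3.62 in wild-type refed and 190.0 ± 13.7 in wild-type fasted livers (mean ± SD, n = 5 each). Its log2 change was 0.04 (SE 0.057) in K556R and 0.00 (SE 0.054) in wild-type livers. The 3 GABARAP-type genes ran from the largest change among the members to values near 0. Genes of one family can share reads, and how shared reads were counted is not stated in the labels or processing notes.

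**Figure D2:**
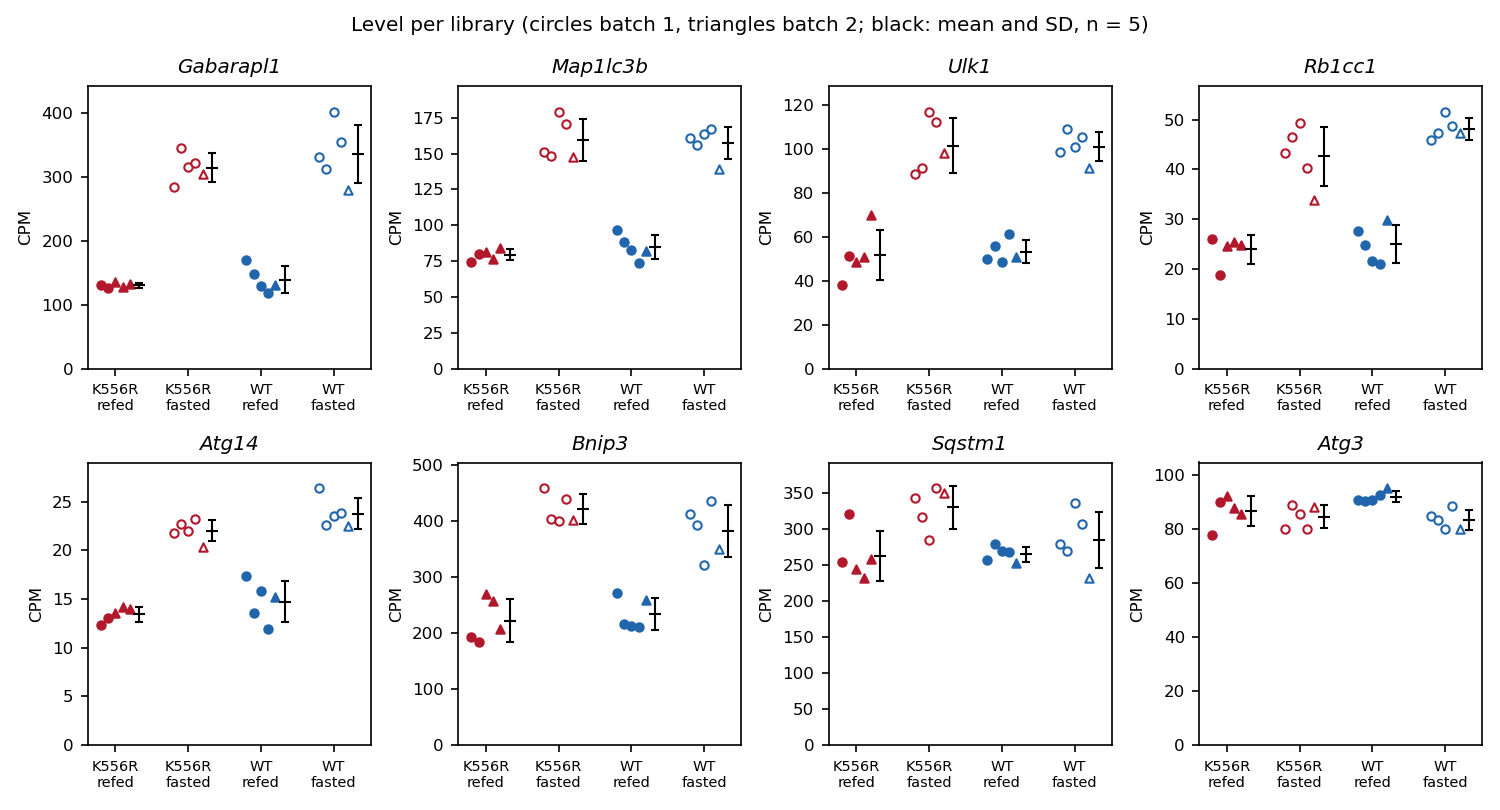
CPM (y axis, from 0) of 8 members in each of the 20 libraries by group, with K556R refed, K556R fasted, wild-type refed and wild-type fasted from left to right, circles for batch 1, triangles for batch 2, filled for refed and open for fasted, and black bars for mean and SD (n = 5). Gabarapl1, Map1lc3b, Ulk1, Rb1cc1, Atg14 and Bnip3 show no overlap between refed and fasted libraries, Sqstm1 overlaps in both genotypes, and Atg3 is nearly level.

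Of the 5 cargo receptors, all 5 fell in refed K556R livers and 4 fell in refed wild-type livers. Bnip3 (chr7:138890836-138909519), a receptor on mitochondria that is also induced by hypoxia, measured 193, 184, 269, 257 and 208 CPM in K556R refed livers, against 459, 404, 399.8, 440.0 and 403 CPM in K556R fasted livers. Its wild-type values were 272, 217, 212, 210.1 and 259 CPM refed and 412, 393, 321, 436 and 351 CPM fasted. The refed libraries were all below the fasted ones, and the log2 changes were −0.98 (SE 0.12, adjusted p = 1.92e-06) in K556R and −0.71 (SE 0.11, adjusted p = 1.99e-05) in wild-type livers. The related mitochondrial receptor Bnip3l (chr14:66985239-67008877), also called NIX, measured 69.7, 55.4, 75.7, 74.5 and 69.5 CPM in K556R refed and 119, 120.0, 125, 126 and 111 CPM in K556R fasted livers. In wild-type livers Bnip3l measured 79.9, 69.8, 62.5, 64.2 and 81.3 CPM refed and 114, 116, 114, 136 and 105 CPM fasted, with no overlap between the feeding states of either genotype. It changed by −0.83 (SE 0.097, adjusted p = 1.72e-06) in K556R and −0.71 (SE 0.091, adjusted p = 2.83e-06) in wild-type livers.

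Nbr1 (chr11:101552149-101581951), a receptor for ubiquitinated cargo, measured 193, 192, 200, 191 and 205 CPM in K556R refed livers and 202, 229.5, 245, 219 and 234 CPM in K556R fasted livers. Wild-type levels were 204, 196, 204, 196 and 199 CPM refed and 255, 251, 256, 248 and 254 CPM fasted. The wild-type feeding states were separate and those of K556R overlapped, with log2 changes of −0.21 (SE 0.055, adjusted p = 0.0038) in K556R and −0.34 (SE 0.052, adjusted p = 2.47e-05) in wild-type livers. In batch 1 alone the K556R change was −0.22 with an adjusted p of 0.0626. Optn, which acts in the removal of damaged mitochondria and bacteria, changed by −0.40 (SE 0.079, adjusted p = 0.000485) in K556R and −0.40 (SE 0.075, adjusted p = 0.000205) in wild-type livers.

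Sqstm1 encodes p62, a receptor that is itself degraded by autophagy and a target of the stress factor NRF2. It measured 255, 321, 244, 231 and 259 CPM in K556R refed livers and 343, 316, 284, 357 and 349 CPM in K556R fasted livers, and 257, 279, 269.8, 267 and 253 CPM in wild-type refed and 279.7, 269, 336, 306 and 232 CPM in wild-type fasted livers. Refed and fasted libraries overlapped in both genotypes. Its log2 change was −0.28 (SE 0.092, adjusted p = 0.0195) in K556R and −0.10 (SE 0.088, adjusted p = 0.392) in wild-type livers. The K556R call of Sqstm1 was lost without K556R refed 1_b1 or K556R fasted 1_b2 (adjusted p up to 0.166) and in batch 1 alone, and also without both libraries that stood apart.

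The MiT/TFE factors gave no tested row under their listed symbols. RefSeq records Tcfeb, Tcfe3, 9430023L20Rik and Tmem49 as older symbols of Tfeb, Tfe3, Atg101 and Vmp1, and the table has rows under these names, which lie outside the rule for members. Tcfeb had log2 changes of −0.24 (SE 0.17, adjusted p = 0.295) in K556R and −0.37 (SE 0.17, adjusted p = 0.0786) in wild-type livers, and Tcfe3 had −0.53 (SE 0.23, adjusted p = 0.0782) in K556R and −0.40 (SE 0.22, adjusted p = 0.157) in wild-type livers. The row 9430023L20Rik had 0.24 (SE 0.16, adjusted p = 0.24) in K556R and 0.23 (SE 0.15, adjusted p = 0.232) in wild-type livers, and Tmem49 had −0.01 (SE 0.11, adjusted p = 0.938) in K556R and −0.05 (SE 0.10, adjusted p = 0.727) in wild-type livers. None of these rows passed the test.

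The 2 K556R libraries that stood apart and the batches touched the counts as follows. Without both libraries, 18 members were lower and 1 higher in refed K556R livers, and 24 lower and 3 higher in refed wild-type livers. The K556R calls lost were those of Atg13, Becn1, Gabarapl2 and Sqstm1. In batch 1 alone, with 2 K556R refed libraries, 19 were lower and 0 higher in K556R and 21 lower and 1 higher in wild-type livers. In batch 2 alone, all 22 members lower in K556R had a negative difference (3 refed libraries against 1 fasted), and 21 of the 23 lower in wild-type livers did (1 against 1, no test). Library 1_b2 had the lowest level among the wild-type fasted libraries for 10 of the 23 members that fell there, and library 1_b1 the lowest among the K556R fasted ones for 11 of 22. Some members share exonic bases with another annotated gene, among them Becn1 with Cntd1 (43.9% of its exonic bases), Gabarapl1 with 1700101I11Rik (28.3%), Bnip3 with Gm45507 (22.3%), Uvrag with Gm45187 (17.6%) and Sqstm1 with Mrnip (17.3%), all on the opposite strand. Atg4d overlaps Kri1 on the opposite strand (19.3%), and Kri1 has its own row with a mean of 11.4 CPM. Atg9a overlaps Gm29253 on the same strand (31.8%). The strand setting of the counting is not stated in the labels or processing notes, so reads of such pairs cannot be told apart. Cntd1 had a mean of 0.0746 CPM in its own row, and the partners of Gabarapl1, Bnip3, Uvrag, Sqstm1 and Atg9a have no row under these names.

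Levels set per kilobase of annotated exon, from all 20 libraries, differed widely between members. Bnip3 had the highest mean level at 139 CPM per kb, ahead of Gabarapl1 at 114, Gabarap at 102 and Sqstm1 at 85.0 CPM per kb. The lowest were Atg16l2 at 1.47, Atg10 at 1.93 and Pik3r4 at 2.08 CPM per kb. Within the ATG8 family Map1lc3b stood at 15.99, Gabarapl2 at 16.7 and Map1lc3a at 21.5 CPM per kb. These lengths join the exons of all annotated isoforms, so genes with long minor isoforms come out low on this scale.

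The K556R form was compared with wild type within each feeding state and averaged over both, and the interaction asked whether refeeding changed a gene differently in the 2 genotypes. No member passed any of these tests in edgeR. For the interaction, 0 members had an unadjusted p under 0.05, against 3.98% of all genes, DESeq2 called 0, and 0 of all 13894 genes passed (0%). The lowest adjusted p of a member was 0.9997, and the largest interaction of a member was 0.26 in size on the log2 scale. The 3 members with the lowest p were Ulk2 with 0.26 (SE 0.13), Bnip3 with −0.26 (SE 0.16) and Nbr1 with 0.12 (SE 0.076), where a positive value means a smaller fall in K556R livers.

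In fasted livers, K556R against wild type, 0 members and 0 of all genes (0%) passed in edgeR. At an unadjusted p under 0.05 there were 4 members, Ulk2, Nbr1, Sqstm1 and Uvrag (11.1% of members, against 8.18% of all genes), and DESeq2 called 1, Nbr1 (adjusted p = 0.049), where it called 0.542% of the genes for which it gave an adjusted p. From the library values above, fasted Nbr1 ranged 202 to 245 CPM in K556R and 248 to 256 CPM in wild-type livers without overlap. Fasted Ulk2, Sqstm1 and Uvrag overlapped. Atg4b also had no overlap, at 27.45 to 29.98 CPM in K556R fasted and 30.14 to 31.87 CPM in wild-type fasted livers. The share of all genes without overlap in this comparison was not counted, so the separation of Nbr1 is not a result by itself. The log2 differences were −0.28 (SE 0.086, adjusted p = 0.367) for Ulk2, −0.16 (SE 0.052, adjusted p = 0.392) for Nbr1 and 0.22 (SE 0.088, adjusted p = 0.51) for Sqstm1.

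In refed livers, K556R against wild type, 0 members and 0 of all genes (0%) passed in edgeR, 0 members had an unadjusted p under 0.05, against 4.99% of all genes, and DESeq2 called 0. The 3 members with the lowest p were Wipi1 with a log2 difference of −0.31 (SE 0.15, adjusted p = 0.965), Atg3 with −0.10 (SE 0.056, adjusted p = 0.965) and Uvrag with −0.17 (SE 0.095, adjusted p = 0.965). Refed Wipi1 ranged 6.81 to 13.1 CPM in K556R and 10.8 to 13.8 CPM in wild-type livers, which overlap. Averaged over both feeding states, 0 members passed in edgeR and 0 in DESeq2, while 0.0288% of all genes passed in edgeR. At an unadjusted p under 0.05 there were 6 members (16.7%), against 9.27% of all genes. The lowest p among members belonged to Uvrag with −0.19 (SE 0.065, adjusted p = 0.36), then Nbr1 with −0.10 (SE 0.038, adjusted p = 0.41) and Ulk2 with −0.15 (SE 0.063, adjusted p = 0.448). The differences between genotypes were at most 0.28 on the log2 scale in size in fasted livers and 0.31 in refed livers. These tests do not show that the genotypes are alike.

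**Figure D3:**
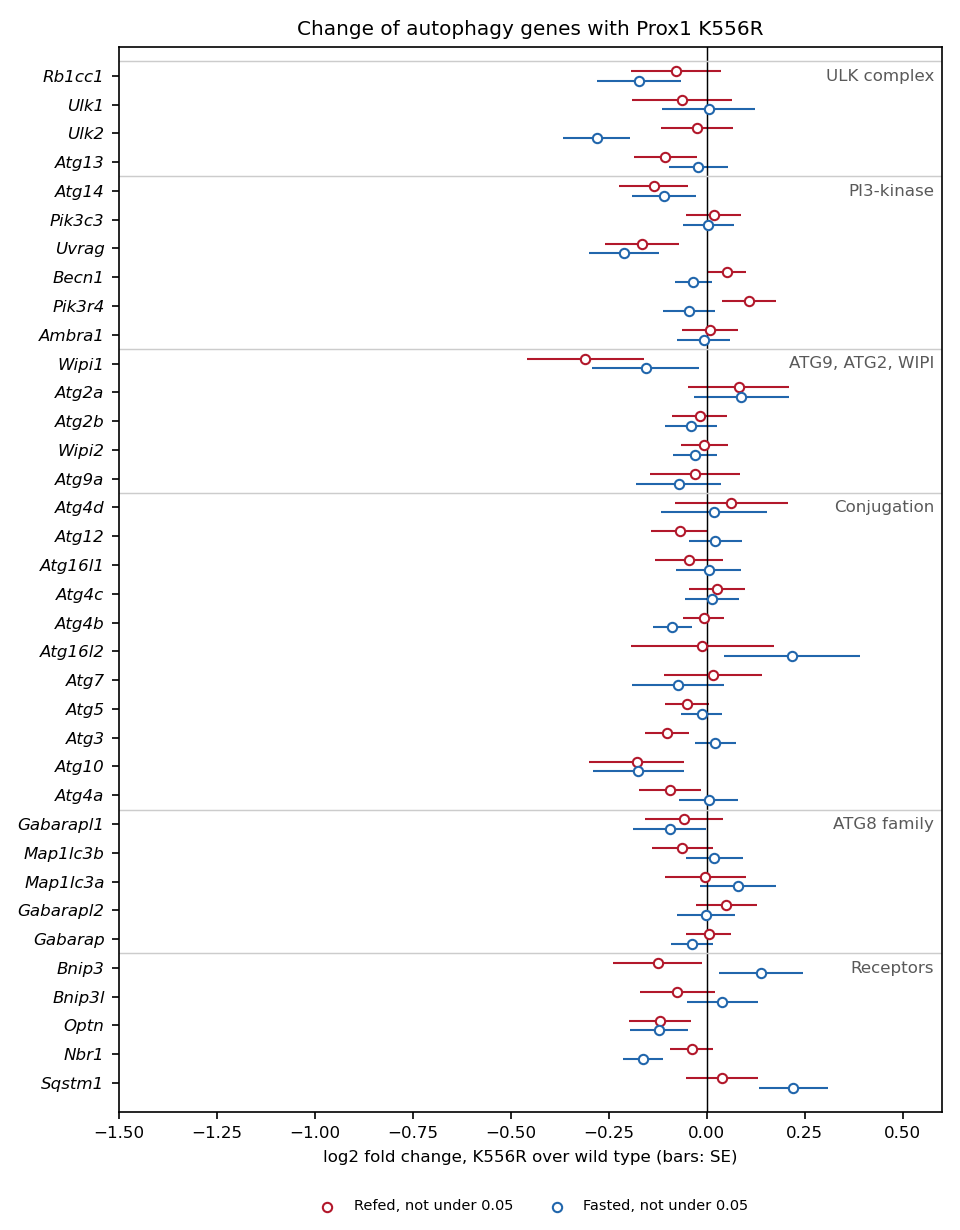
Log2 fold change of K556R over wild-type livers (x axis, bars are standard errors) for the 36 members, with refed drawn above fasted, on the same axis range as the plot of refeeding changes. All points are open, since none had an adjusted p under 0.05, and all lie within 0.31 of 0.

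Other genes of the pathway were read from lists of related genes, and their counts stand beside the 20.3% lower and 19.6% higher of all genes in K556R and the 24.2% lower and 20.9% higher in wild-type livers. Of 16 tested genes of the remaining autophagy machinery, 5 fell and 2 rose in refed K556R livers and 7 fell and 2 rose in refed wild-type livers, with median log2 changes of −0.12 in each. Sh3glb1, which binds the Beclin 1 complex, changed by −0.44 (SE 0.072, adjusted p = 5.5e-05) in K556R and −0.44 (SE 0.067, adjusted p = 2.2e-05) in wild-type livers. Wdr45, a WIPI-type protein, changed by −0.56 (SE 0.099) in K556R and −0.53 (SE 0.094) in wild-type livers, and Nrbf2, a subunit of the lipid kinase complex, by −0.48 (SE 0.11) in K556R and −0.44 (SE 0.10) in wild-type livers. Tmem41b, a lipid scramblase needed for autophagosome formation, rose, by 0.40 (SE 0.11, adjusted p = 0.00573) in K556R and 0.48 (SE 0.10, adjusted p = 0.000643) in wild-type livers.

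Further receptors and adaptors were lower in most cases. Of 19 tested, 13 fell and 0 rose in refed K556R livers and 11 fell and 1 rose in refed wild-type livers, with medians of −0.31 in K556R and −0.24 in wild-type livers. Wdfy3, the large adaptor ALFY, changed by −0.57 (SE 0.065, adjusted p = 1.25e-06) in K556R and −0.73 (SE 0.061, adjusted p = 2.33e-08) in wild-type livers. Calcoco1 and Ccpg1, receptors for the endoplasmic reticulum, changed by −1.14 (SE 0.13) and −0.40 (SE 0.059) in K556R livers and by −1.09 (SE 0.12) and −0.47 (SE 0.056) in wild-type livers. Bcl2l13, a mitochondrial receptor, changed by −0.63 (SE 0.080) in K556R and −0.72 (SE 0.076) in wild-type livers.

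Lysosomal genes, the end point of the pathway, moved in part. Of 36 tested, 17 fell and 1 rose in refed K556R livers and 18 fell and 2 rose in refed wild-type livers, with medians of −0.17 in K556R and −0.21 in wild-type livers. The lysosomal cholesterol exporter Npc1 changed by −0.97 (SE 0.10, adjusted p = 4.93e-07) in K556R and −1.01 (SE 0.095, adjusted p = 7.73e-08) in wild-type livers. Scarb2, a lysosomal membrane protein, changed by −0.58 (SE 0.079) in K556R and −0.69 (SE 0.075) in wild-type livers, and the protease cathepsin F, Ctsf, by −0.41 (SE 0.070) in K556R and −0.56 (SE 0.066) in wild-type livers. Sgsh, an enzyme that degrades heparan sulfate, rose, by 1.19 (SE 0.10, adjusted p = 6.05e-08) in K556R and 1.14 (SE 0.099, adjusted p = 3.12e-08) in wild-type livers.

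Of 26 tested genes of the mTORC1 and AMPK pathways, 5 fell and 4 rose in refed K556R livers and 10 fell and 4 rose in refed wild-type livers, with medians of −0.04 in K556R and −0.18 in wild-type livers. The K556R counts were near the shares of all genes, 20.3% lower and 19.6% higher. Flcn and Fnip1, which form the folliculin complex that acts in amino acid sensing at the lysosome, changed by −0.995 (SE 0.091) and −1.19 (SE 0.13) in K556R livers and by −1.14 (SE 0.086) and −1.39 (SE 0.12) in wild-type livers. Sesn2, a leucine-responsive inhibitor of mTORC1 signalling, changed by −1.65 (SE 0.23, adjusted p = 1.52e-05) in K556R and −1.62 (SE 0.22, adjusted p = 6.04e-06) in wild-type livers. Tbc1d7, a subunit of the TSC complex that restrains mTORC1, rose, by 0.70 (SE 0.093) in K556R and 0.92 (SE 0.090) in wild-type livers.

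Of 13 tested regulators of autophagy genes, 8 fell and 0 rose in refed K556R livers and 9 fell and 2 rose in refed wild-type livers, with medians of −0.41 in K556R and −0.46 in wild-type livers. Foxo1, a factor that insulin signalling keeps out of the nucleus, changed by −1.42 (SE 0.11, adjusted p = 1.77e-08) in K556R and −1.62 (SE 0.10, adjusted p = 1.13e-09) in wild-type livers. Ppara, the fatty acid receptor of the fasting response, changed by −1.09 (SE 0.085, adjusted p = 2.04e-08) in K556R and −1.14 (SE 0.080, adjusted p = 3.15e-09) in wild-type livers. Crtc2, a CREB coactivator active in fasting, changed by −0.44 (SE 0.068) in K556R and −0.50 (SE 0.065) in wild-type livers, and Foxo4 by −0.41 (SE 0.066) in K556R and −0.46 (SE 0.063) in wild-type livers. These are transcript levels, and the activity of the factors was not measured.

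**Figure D4:**
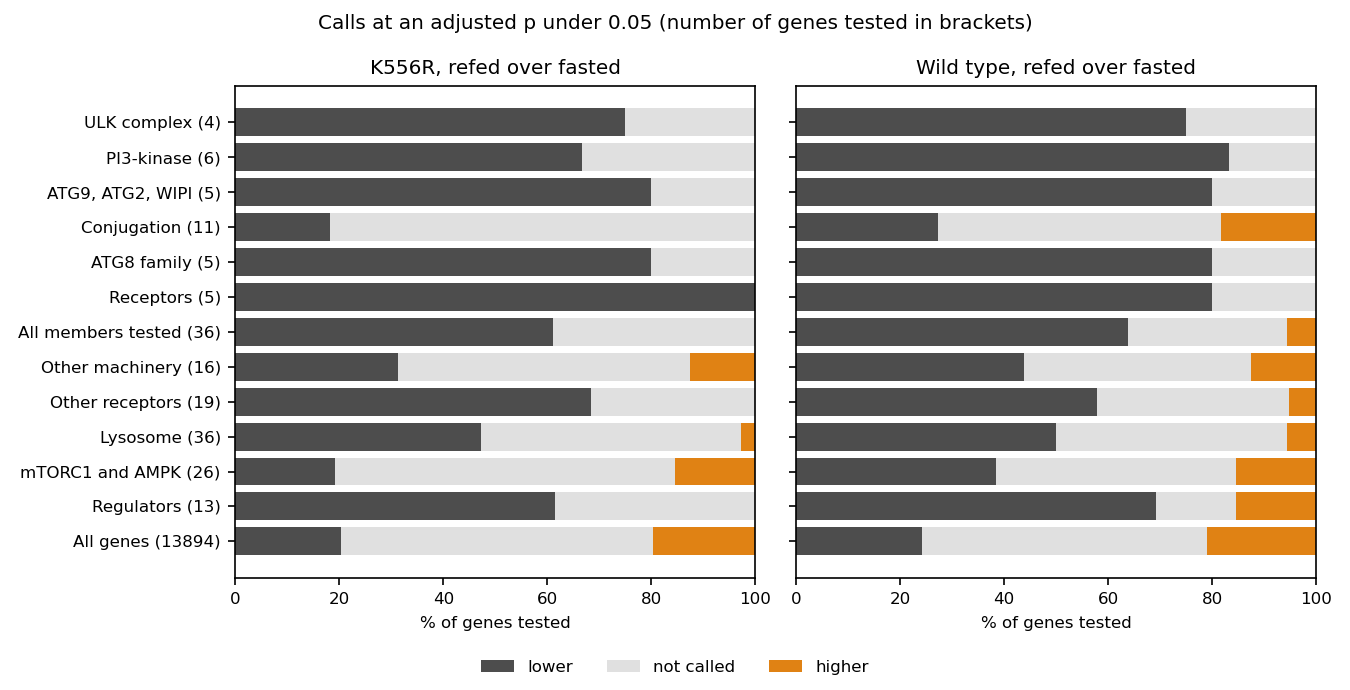
Share of tested genes (x axis, %) called lower, not called or called higher in refed over fasted livers, for each role among the members, for the members together, for the related lists and for all genes, with K556R on the left and wild type on the right. The members stand at 61.1% lower in K556R and 63.9% in wild type, against 20.3% and 24.2% of all genes in the same comparisons, and the conjugation system has the lowest share of lower calls among the roles.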

How the data were processed

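Messenger RNA from mouse liver was captured on poly-T beads and sequenced in 20 libraries, per the labels' protocols. The authors deposited raw counts of reads for each gene symbol, and no normalization was applied to these counts. Per the submitters' processing notes, the build was mm10 and the tools were STAR, TopHat, STAR-Fusion, HTSeq, edgeR and DESeq2. The counting tool, its annotation and whether it used strand are not stated there. Total counts of 33746054 to 50647297 per library set the depth.

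The test was edgeR's quasi-likelihood F test (edgeR 4.0.16 under R 4.3.3, robust dispersions). Genes were first filtered by filterByExpr, with 10 as the minimum count and 15 as the minimum total, and libraries were scaled by TMM. All 20 libraries were fitted together with group and batch as terms. Benjamini-Hochberg adjustment ran over all 13894 genes tested, and calls have an adjusted p under 0.05. The SE is the size of the log2 fold change divided by the square root of F. The fit was tested on simulated counts with known changes in a small share of genes, evenly up and down, and with no batch effect. The simulation thus does not cover the setting of these data, where many genes changed and the batches were uneven. DESeq2 1.42.0 served as an alternative, beside other scalings, filters, batch treatments, a replicate block and leaving out each library in turn.

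Members and related lists were chosen with earlier results of these data known. Every member called on refeeding is named. Values in each library are given for the 10 members with the lowest p in wild-type refeeding and for the 3 with the lowest p in each genotype comparison. Of each related list the 4 genes with the lowest p in wild-type refeeding are named, and cell type markers are given as sums. Gene positions are from GENCODE M21 on GRCm38, and start regions from RefSeq on GRCm38.p6.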

Additional observations from a re-analysis of the deposited data

Results flagged for a closer look

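Among 15 members examined in 4 groups of 5 libraries each, which makes 60 groups, 3 had 1 library set off by a gap that was large for its group's range. Chance alone marks about 1 in 20, so 3 of 60 is no more than that share. Rb1cc1 measured 18.75 CPM in K556R refed 2_b1, against 24.6 to 26.0 CPM in the other K556R refed libraries, so this library lay below its own group and further from the fasted livers. Wipi1 measured 12.32 CPM in K556R fasted 1_b1, one of the 2 libraries that stood apart, against 18.6 to 20.2 CPM in the other K556R fasted libraries. Pik3c3 measured 22.25 CPM in wild-type fasted 1_b1, against 23.6 to 24.1 CPM in the other wild-type fasted libraries. Over all alternatives, leave-one-out fits included, the log2 change on refeeding ran −1.003 to −0.72 for Rb1cc1 and −1.14 to −0.75 for Wipi1 in K556R livers and −0.51 to −0.40 for Pik3c3 in wild-type livers, and each kept its call.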

How the results depend on the processing

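The number of members lower on refeeding stayed within 1.5 times its value under every alternative run, at 18 to 22 in K556R and 20 to 24 in wild-type livers. The number higher in refed K556R livers, 0 in edgeR with TMM, was 1 with RLE scaling, 3 with upper-quartile scaling, 1 with DESeq2, 2 with the stricter filter, 1 without the batch term and 1 without both K556R libraries that stood apart, and it ran from 0 to 2 when 1 library was left out (2 without K556R refed 1_b1 or wild-type fasted 4_b1). The number higher in refed wild-type livers, 2, was 1 in batch 1 only, 1 with a replicate block, and 1 to 3 when 1 library was left out, and it was 3, with Atg5 added, under RLE or upper-quartile scaling, DESeq2, no filter, the stricter filter or without both K556R libraries that stood apart. DESeq2 called 1 member in fasted K556R against wild-type livers, where edgeR called 0. The refeeding calls kept under every alternative run were 16 of 22 in K556R and 21 of 25 in wild-type livers. Those lost under at least 1 alternative were Atg13, Becn1, Atg16l1, Gabarapl2, Sqstm1 and Nbr1 in K556R livers. In wild-type livers they were Pik3r4, Atg3, Atg4c and Atg16l1. Of 20 log2 changes followed (the 10 members with the lowest p, in each genotype) under 29 alternatives each, 579 values kept direction and call, and that of Nbr1 in K556R livers in batch 1 only did not (−0.22, adjusted p = 0.0626). These 10 members were picked for low p in wild-type refeeding of these data, so their stability does not stand for the other members. The block left 18 lower and 0 higher in K556R and 21 lower and 1 higher in wild-type livers. In batch 1, deviations from fitted group and batch levels had r over 0.1 in 4 of 18 same-numbered pairs (median r −0.0276). Among differently numbered pairs, 8 of 54 did (median r −0.0136). The highest r, 0.65, was between the 2 K556R libraries that stood apart, both numbered 1_b1. Since K556R refed has only 2 libraries in batch 1, these values cannot decide whether repeat numbers pair the libraries. Upper-quartile scaling moved the share of lower among all genes called to 41.7% in K556R and 43.0% in wild-type livers, against 50.8% and 53.6% with TMM. The causes were not tested. The calls of Atg3 and Atg4c in wild-type livers lay near the threshold (adjusted p = 0.0342 and 0.0457 in edgeR).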
